A study of Mus musculus with 43 samples.

Results

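The mitochondrial ribosomal protein genes were followed through 4 tissues of 15-month-old female mice: brain, liver, skeletal muscle and the inguinal depot of white fat (WAT). They were taken as the entries of the expression table that name a single gene whose symbol starts with Mrpl or Mrps followed by a digit, without the -ps pseudogenes. The rule found 73 of the 42349 entries in the table, for 72 gene symbols, of which 46 were Mrpl and 26 Mrps, the letters standing for the large and the small subunit. The names do not describe every product, since those of Mrps18a and Mrps30 sit in the large subunit and that of Mrps36 belongs to another complex. Mrps23 had a second entry on an alternative scaffold that was listed at 0 in all 16 groups. The other 72 entries had at least 1 FPKM (fragments scaled to transcript length and to the size of the library) in every group and all were tested in every comparison. Mrpl33, Mrpl53, Mrps6, Mrps24 and Mrps34 stand in the table only as part of entries joined with a neighbouring gene and have no value of their own here.

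The mice were wild type (WT) or carried the Irs1-/- label (KO, loss of insulin receptor substrate 1 in the whole animal). They were fed ad libitum (AL) or kept on 30% dietary restriction (DR) for 12 months, begun at 10 weeks of age. This gave 4 groups per tissue, WTAL, WTDR, KOAL and KODR, with 2 libraries in each WTAL group and in WTDR WAT and 3 in every other group by the sample labels, 43 in all. The description of the design gives 3 for WTDR, but the authors averaged their alignment rates over 43 samples, the number in the labels. The pooled values themselves do not show how many libraries WTDR WAT holds. The table holds 1 pooled FPKM per group with a 95% interval, not the value of each library, so the error given is the one the authors' software estimated. The median error of the 72 genes ranged from 25.5% of the FPKM in WTDR brain to 56.0% in WTDR WAT.

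The summed FPKM of 10 marker genes of each tissue was highest in that tissue in all 4 groups, whereas the genotype could not be read from Irs1 itself. The FPKM of Irs1 lay between 1.62 and 6.56, and in only 1 of 8 comparisons with WT did the KO-labelled group have the lower value. Some groups held markers of another tissue. The summed FPKM of 10 liver markers in skeletal muscle was 50.8 in WTAL, 2649 in WTDR, 143 in KOAL and 248 in KODR, and that of 10 skeletal muscle markers in WAT was 533, 415, 1154 and 711. In WTAL WAT nearly all of the latter sum was Acta1 (507 FPKM), and the other 9 markers summed to 25.5 in WTAL, 302 in WTDR, 817 in KOAL and 384 in KODR. Their part in the results below was not tested.

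Mitochondria keep their own ribosome, which makes the few proteins encoded in mitochondrial DNA, all of them parts of the respiratory chain and ATP synthase. Every protein of this ribosome is encoded in the nucleus, made in the cytosol and imported. The large subunit forms the peptide bonds and the small subunit reads the mRNA. Some proteins have a counterpart in bacterial ribosomes and others occur only in mitochondria. In worms and mice, lower levels of single mitochondrial ribosomal proteins, Mrps5 among them, have been linked to lifespan, and inherited defects in several human genes of the family cause mitochondrial disease.

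Promoters are shown for 3 genes that the results turn on: Mrpl57 and Mrpl35, the only 2 that differed with the genotype label, and Mrpl42, with the largest median difference between brain and skeletal muscle among the genes called in all 4 groups. The sequences are from RefSeq on GRCm38.p6 and run 5′ to 3′ from 250 bases before to 50 bases after the annotated start. Mrpl57 lies at chr14:57825989-57826288 on the plus strand, Mrpl35 at chr6:71823735-71824034 on the minus strand and Mrpl42 at chr10:95501900-95502199 on the minus strand. Capitals mark a match to CCGGAAG, a core bound by ETS factors such as GABP, or to AAGATGG, a core bound by YY1, on either strand.
Mrpl57: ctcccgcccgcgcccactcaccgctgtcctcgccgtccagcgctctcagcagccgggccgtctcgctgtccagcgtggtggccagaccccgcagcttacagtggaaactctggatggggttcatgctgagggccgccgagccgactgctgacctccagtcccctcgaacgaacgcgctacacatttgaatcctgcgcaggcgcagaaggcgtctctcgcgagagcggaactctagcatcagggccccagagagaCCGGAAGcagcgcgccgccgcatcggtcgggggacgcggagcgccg
Mrpl35: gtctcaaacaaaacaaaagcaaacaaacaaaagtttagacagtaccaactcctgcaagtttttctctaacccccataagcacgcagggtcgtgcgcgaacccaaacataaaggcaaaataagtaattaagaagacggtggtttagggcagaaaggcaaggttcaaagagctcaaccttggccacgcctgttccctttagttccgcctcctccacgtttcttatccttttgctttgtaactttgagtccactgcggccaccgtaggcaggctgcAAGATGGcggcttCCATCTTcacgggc
Mrpl42: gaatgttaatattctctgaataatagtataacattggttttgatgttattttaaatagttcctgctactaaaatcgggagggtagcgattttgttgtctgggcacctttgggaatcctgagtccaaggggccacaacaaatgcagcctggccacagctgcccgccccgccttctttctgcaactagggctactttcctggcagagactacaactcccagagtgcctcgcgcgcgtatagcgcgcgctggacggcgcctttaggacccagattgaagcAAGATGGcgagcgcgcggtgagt

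All cores stood in the 50 bases after the start, the ETS core in Mrpl57 and the YY1 core in Mrpl35 and Mrpl42, in Mrpl35 on both strands. GABP, NRF1 and YY1 are known regulators of nuclear genes for mitochondrial proteins. Over the 64 genes with a promoter in the table, CCGGAAG on either strand stood in 23 (35.9%), against 9.93% of the promoters of 27025 genes. AAGATGG stood in 12 (18.8%, against 7.28%) and GCATGCG, an NRF1 core, in 7 (10.9%, against 4.01%). At least 1 of the 3 stood in 34 (53.1%, against 19.3%). These matches are letters in a window and were not tested for binding. No promoter entry was found for Mrpl4, Mrpl13, Mrpl15, Mrpl19, Mrpl38, Mrpl54, Mrps28 and Mrps35.

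The levels of the family differed most between tissues. The median FPKM over the 72 genes was 33.3, 37.2, 42.6 and 43.9 in liver of WTAL, WTDR, KOAL and KODR mice. In skeletal muscle it was 29.1, 35.2, 38.0 and 40.1. In brain it was 16.8, 16.4, 20.2 and 18.5, and in WAT 24.0, 32.6, 20.1 and 32.3. Brain was therefore lowest in WTAL, WTDR and KODR mice, while in KOAL mice brain and WAT lay side by side. Since these are bulk samples, fewer cells of a type and less RNA per cell cannot be told apart.

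**Figure D1:**
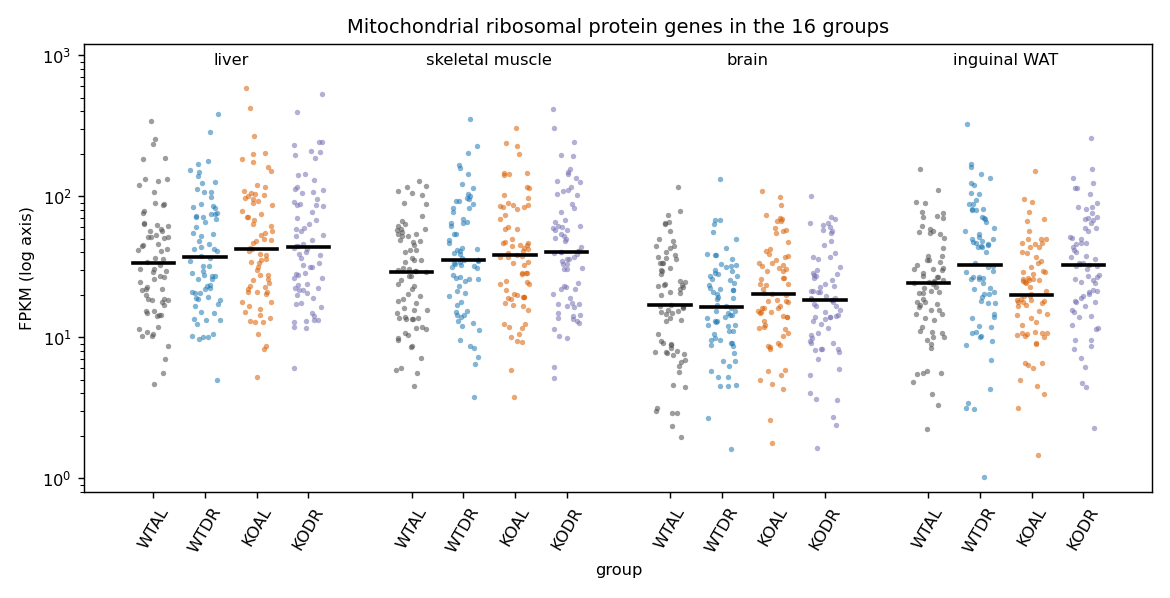
FPKM (log axis) of the 72 mitochondrial ribosomal protein genes in the 16 groups, with 1 point per gene and a black bar at the median. The bars lie between 29.1 and 43.9 in liver and skeletal muscle and between 16.4 and 20.2 in brain, and in WAT they are higher in both DR groups (32.6 and 32.3) than in both AL groups (24.0 and 20.1).

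Single genes of the family spanned a wide range. Averaged over the 16 groups, the highest were Mrpl14 (205 FPKM), Mrpl17 (192), Mrps21 (169), Mrps12 (140) and Mrpl51 (126). The lowest were Mrpl1 (3.44), Mrps22 (5.69), Mrpl35 (7.26), Mrpl11 (7.76) and Mrpl47 (8.72). Mrpl14 and Mrpl17 encode large subunit proteins with bacterial counterparts, and Mrps12 a protein of the decoding site. Mrpl14 ranked first in every liver group, with 340 FPKM in WTAL, 380 in WTDR, 588 in KOAL and 530 in KODR. Mrps21 ranked first in skeletal muscle of 3 groups, Mrps12 in all brain groups and Mrpl17 in all WAT groups.

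Compared within each of the 4 groups, 61 of the 72 genes had a lower FPKM in brain than in liver in all 4 groups (38.8% of all genes tested) and 51 had a lower one than in skeletal muscle (33.4% of all genes). At an FDR of 10% in all 4 groups at once, 6 were lower in brain than in liver (8.33%, against 8.88% of all genes in that direction), 4 were lower in brain than in skeletal muscle (6.83% of all genes) and 1 was lower in WAT than in liver (5.44%). None was higher in brain or WAT, where the shares of all genes were 10.6% for brain over liver, 12.8% for brain over skeletal muscle and 4.76% for WAT over liver. The counts of genes called lower in brain were thus near their background, the counts called higher in brain or WAT and the count called lower in WAT were under theirs, and the direction was not evenly split. Skeletal muscle against liver had 0 called in all 4 groups in either direction (6.2% of all genes higher, 10.3% lower), WAT against skeletal muscle 0 (5.28% and 3.78%) and WAT against brain 0 (5.36% and 9.43%). All of these calls are from a two-sided Wald test on the log2 ratio with Benjamini-Hochberg adjustment. With a t distribution in place of the normal one, 0 of the 72 genes were called in all 4 groups for any pair of tissues.

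The 6 genes called lower in brain than in liver in all 4 groups were Mrpl52, Mrpl15, Mrpl42, Mrpl12, Mrpl34 and Mrpl50, all of the large subunit. Mrpl52, which occurs only in mitochondrial ribosomes, had 50.1, 85.7, 105 and 197 FPKM in liver of WTAL, WTDR, KOAL and KODR mice and 3.02, 9.90, 8.27 and 3.61 in brain. Its log2 difference ran from -5.77 (SE 0.98) in KODR to -3.11 (SE 0.60) in WTDR mice. Mrpl15 had 88.0, 126, 151 and 142 FPKM in liver and 13.3, 22.0, 23.9 and 15.7 in brain. The 2 tissues did not overlap for either gene, which the choice of genes called in all 4 groups favours. Mrpl12, whose protein forms part of the stalk that binds translation factors, had log2 differences from -2.49 (SE 0.46) to -1.70 (SE 0.67). Mrpl14 had a similar gap, from -3.81 (SE 0.95) to -3.15 (SE 1.10), and passed the test in all groups but WTAL.

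The 4 genes called lower in brain than in skeletal muscle in all 4 groups were Mrpl42, Mrps28, Mrps36 and Mrpl15. The FPKM of Mrpl42 was 54.2, 144, 114 and 126 in skeletal muscle of WTAL, WTDR, KOAL and KODR mice and 3.13, 7.68, 11.3 and 3.66 in brain. Its log2 difference was largest in KODR (-5.11, SE 0.75) and smallest in KOAL mice (-3.32, SE 0.64). Mrps36 carries the name of a ribosomal protein, but its product is now placed in the α-ketoglutarate dehydrogenase complex of the citric acid cycle. It was at 20.3 to 35.3 FPKM in skeletal muscle, at 5.61 to 11.9 in liver and at 1.65 to 8.49 in brain. Mrps28 was at 58.9 to 110 FPKM in skeletal muscle and at 10.7 to 13.8 in brain. Mrps36 and Mrpl42 were among the 11 genes that were highest in skeletal muscle in all 4 groups.

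Liver was the tissue of the highest value in all 4 groups for 21 genes and skeletal muscle for 11, among them Mrpl3, Mrpl44, Mrps5 and Mrps9. Neither brain nor WAT held the highest value in all 4 groups for any gene. Brain held the lowest value in all 4 groups for 26 genes and WAT for 4 (Mrpl1, Mrpl35, Mrpl46 and Mrps27). These orders were not counted over all genes, so the counts have no background share beside them. Mrpl3 was the exception in liver. It was lowest there in all 4 groups, at 12.8 to 16.7 FPKM, against 30.5 to 41.4 in skeletal muscle and 18.3 to 30.0 in brain, with log2 differences between brain and liver of 0.49 (SE 0.69) to 0.85 (SE 0.81) that did not pass the test.

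**Figure D2:**
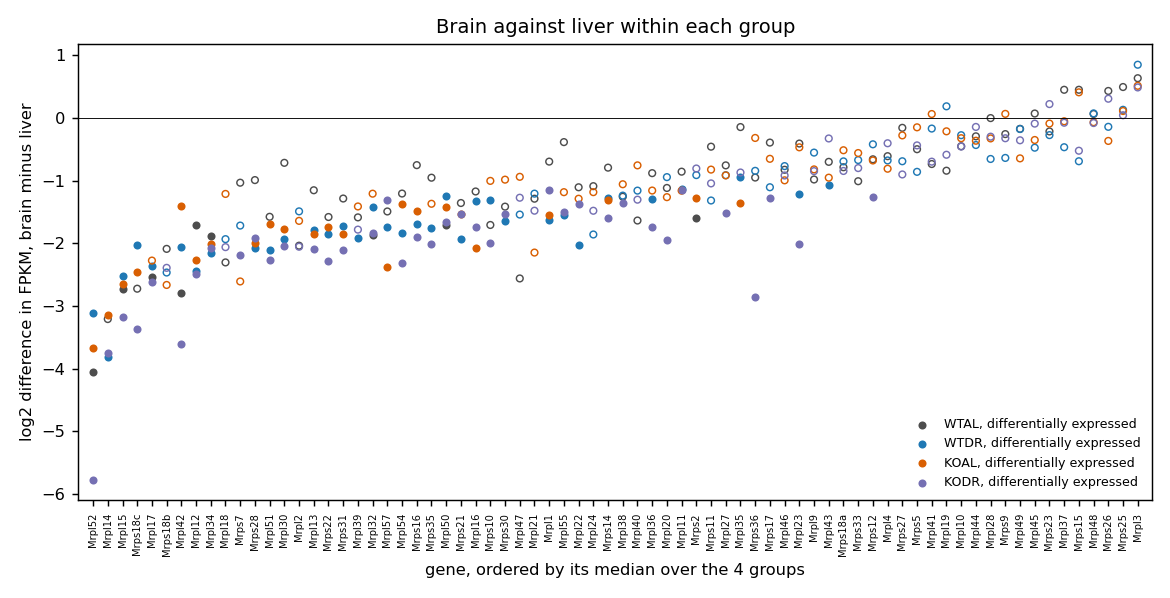
Log2 difference in FPKM between brain and liver for each of the 72 genes, ordered by the median over the 4 groups, with 1 point per group and filled points for those that passed an FDR of 10% (open points did not). Most points lie below 0, with Mrpl52 farthest (-5.77 to -3.11) and Mrpl3 the only gene of the 72 besides Mrps25 with all 4 points above 0.

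In skeletal muscle, the comparison of the group labelled KOAL with WTAL mice asked what the loss of Irs1 does under ad libitum feeding. Of the 72 genes, 2 were differentially expressed, Mrpl57 and Mrpl35, both higher, against 0.681% of all 14102 genes tested in either direction. Both encode large subunit proteins, that of Mrpl57 known only in mitochondria and that of Mrpl35 with a bacterial counterpart. Mrpl57, on chromosome 14 from 57826239 to 57828745, had 7.14 FPKM (4.53 to 9.74) in WTAL, 8.70 (7.51 to 9.89) in WTDR, 15.7 (13.4 to 18.0) in KOAL and 13.7 (11.9 to 15.4) in KODR skeletal muscle, with the authors' 95% interval in parentheses. The intervals of both groups labelled KO lay above those of both WT groups. The test rests on these same intervals, and the choice of a gene called in both genotype comparisons favours such a gap. Between WTAL and KOAL it rose by 1.14 on the log2 scale (SE 0.28, 95% interval of the difference 0.58 to 1.69).

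Mrpl35, on chromosome 6 from 71813003 to 71823810, had 4.50 FPKM (2.69 to 6.32) in WTAL, 7.22 (5.83 to 8.61) in WTDR, 9.99 (7.92 to 12.1) in KOAL and 9.92 (7.77 to 12.1) in KODR skeletal muscle. WTAL stood below the other 3 groups for the most part. Between WTAL and KOAL the gene rose by 1.15 on the log2 scale (SE 0.33, 95% interval of the difference 0.51 to 1.79). With the t distribution in place of the normal one neither gene passed the FDR of 10%, and at an FDR of 5% only Mrpl57 did.

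Mrpl57 also rose between WTDR and KODR skeletal muscle, by 0.65 on the log2 scale (SE 0.13, 95% interval 0.39 to 0.91), the only 1 of the 72 genes to do so (2.23% of all genes). Here too it did not pass with the t distribution. Mrpl35 had a difference of 0.46 (SE 0.21) in this comparison and did not pass. Outside skeletal muscle the FPKM of Mrpl57 was higher in the group labelled KO in liver on both diets (18.7 and 25.9, 15.0 and 20.5), in WAT on both (5.60 and 6.52, 3.14 and 8.29) and in brain on DR (4.47 and 8.23), but not in AL brain (6.64 and 4.99). None of these 6 differences passed the test. Mrpl57 was the only gene of the 72 called lower in WAT than in liver in all 4 groups (5.44% of all genes). Its log2 differences ran from -2.25 (SE 0.64) to -1.30 (SE 0.31). Of the 72 genes, 37 had the lower FPKM in WAT in all 4 groups, against 30.8% of all genes.

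**Figure D3:**
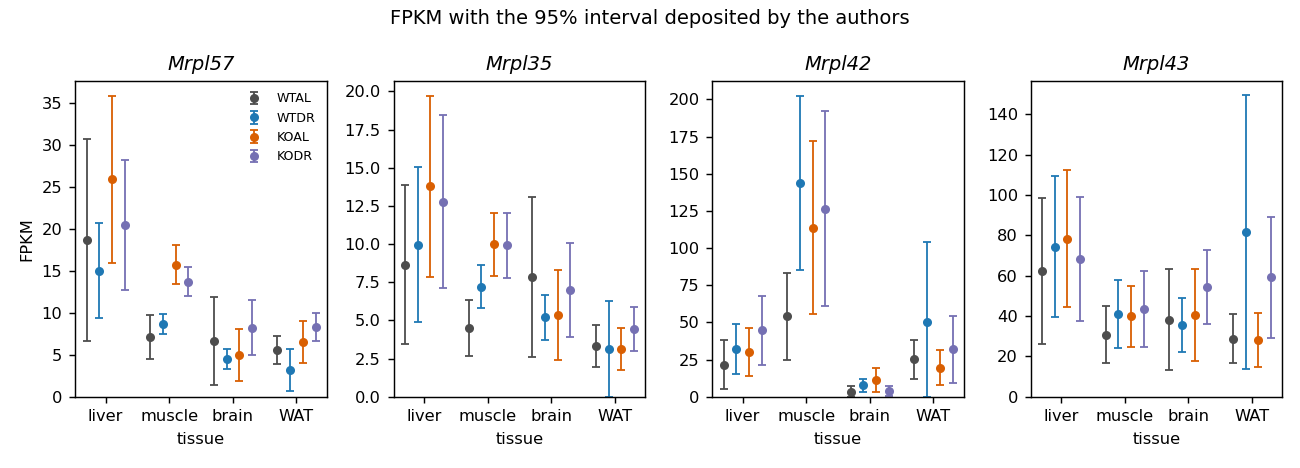
FPKM of Mrpl57, Mrpl35, Mrpl42 and Mrpl43 in the 16 groups, with the authors' 95% interval as bars and the colours standing for WTAL, WTDR, KOAL and KODR. In skeletal muscle the intervals of Mrpl57 in both KO groups (13.4 to 18.0 and 11.9 to 15.4) lie above those in both WT groups. Mrpl57 was chosen because it was called there, which favours such a gap. In WAT the interval of Mrpl43 in WTDR mice is wide (13.6 to 149.7).

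The remaining genes of the family in skeletal muscle did not pass the test singly, and most differed in 1 direction. Between WTAL and KOAL, 58 of 72 were higher (46.9% of all genes), with a median log2 difference of 0.49 against -0.05 for all genes tested. Between WTAL and WTDR, 59 were higher (45.7% of all genes), with a median of 0.45 against -0.06, and 0 passed the FDR (1.4% of all genes). These comparisons share the WTAL mice. An unadjusted p under 0.05 was reached by 7 genes in the former (9.72%, against 3.18% of all genes) and by 6 in the latter (8.33%, against 5.05%), all higher. Mrps21, a small subunit protein, was at 105 FPKM in WTAL, 352 in WTDR, 304 in KOAL and 417 in KODR skeletal muscle, and its difference between WTDR and WTAL was 1.74 (SE 0.56), which did not pass the FDR, as it did with a pseudocount of 0.1 or 1, a filter at 5 FPKM, a smaller SE (the authors' SD divided by the square root of the number of libraries) or centring on all genes. For Mrpl42 it was 1.41 (SE 0.49) and did not pass. For both genes the WTAL value was the lowest of the 4.

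The 2 comparisons without WTAL mice were flatter. Between WTDR and KODR 49 genes were higher (52.9% of all genes), with a median of 0.18 against 0.04. Between KOAL and KODR 49 were higher as well (52.9%), with a median of 0.13 against 0.03, and 0 passed the FDR (0.5% of all genes). At an unadjusted p under 0.05 there were 2 genes in the former (5.81% of all genes) and 0 in the latter (2.01%). The difference of the diet effects between genotypes, the interaction, had 0 calls among the 72 genes (0.371% of all), 0 at an unadjusted p under 0.05 (2.3%) and a median of -0.28 against 0.08. Markers of other cells moved with these groups. The summed FPKM of 5 red blood cell genes in skeletal muscle was 950 in WTAL, 1553 in WTDR, 11582 in KOAL and 20283 in KODR, and that of 10 white fat genes was 2122, 724, 2379 and 3031. That of 10 brown and beige fat genes, several of them for mitochondrial proteins, was 649, 975, 1348 and 1120. Most of each sum was Cox8b, at 577, 853, 1091 and 987 FPKM in skeletal muscle and at 31.7 to 67.1 in WAT. The sum therefore cannot be read as brown fat cells alone. All 10 of these genes were higher in KOAL than in WTAL skeletal muscle, and between WTAL and WTDR 7 were higher and 3 lower. Ucp1 was at 0.09, 0.23, 66.9 and 2.05 FPKM and Cidea at 2.16, 2.07, 79.1 and 22.8, both highest in KOAL mice. The 10 liver markers, Alb and Apoa1 among them, were higher in WTDR than in WTAL skeletal muscle, all 10 of them. The part of these cells in the medians and in the calls of Mrpl57 and Mrpl35 was not tested.

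**Figure D4:**
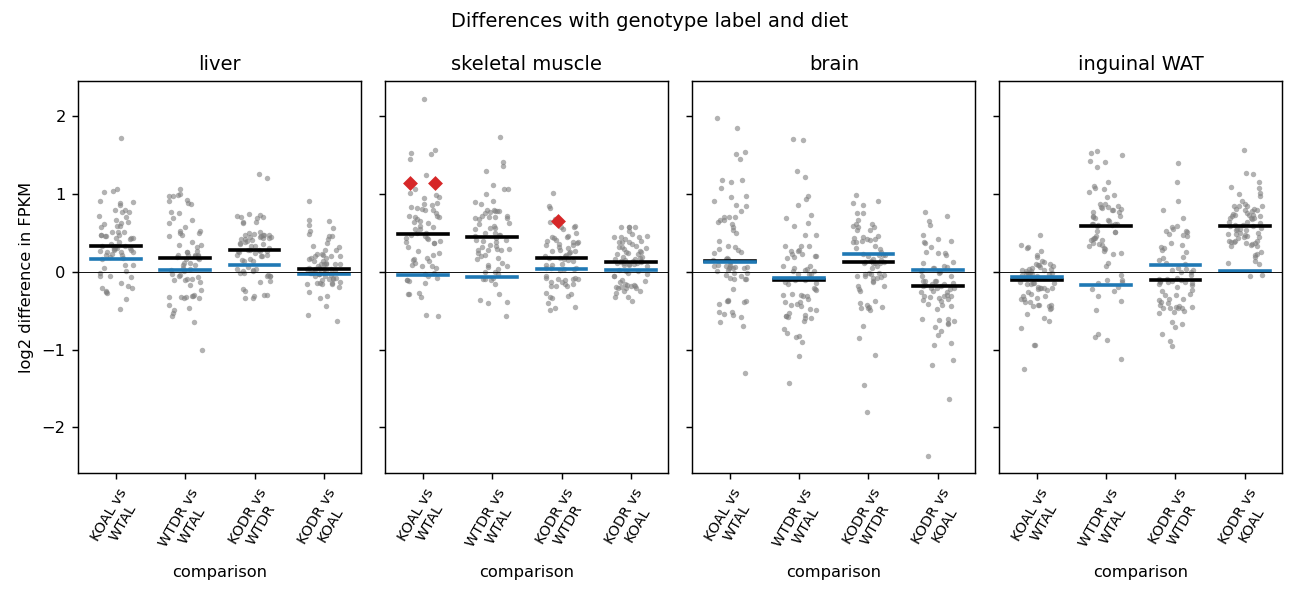
Log2 differences in FPKM of the 72 genes for 4 comparisons in each tissue, with grey points for single genes, red diamonds for those that passed an FDR of 10%, a black bar at their median and a blue bar at the median of all genes tested. The black bar stands farthest above the blue one in skeletal muscle for both comparisons with WTAL (0.49 against -0.05, 0.45 against -0.06) and in WAT for both diet comparisons (0.60 against -0.17, 0.59 against 0.01).

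In WAT, most genes of the family had a higher level under DR in WT mice and nearly all did in KO mice, though 0 genes passed the FDR (0.57% of all genes between WTDR and WTAL, 0.707% between KODR and KOAL). Between WTAL and WTDR, 57 of 72 were higher (40.8% of all genes), with a median log2 difference of 0.60 against -0.17 for all genes. Between KOAL and KODR, 70 of 72 were higher (50.6%), with a median of 0.59 against 0.01. These comparisons share no mice, and 56 genes were higher in both, 77.8% of the family against 30.1% of all genes. Only 1 gene was lower in both (37.1% of all genes). With the differences centred on the median of all genes, 62 and 70 were higher. An unadjusted p under 0.05 in the Wald test was reached by 2 genes in WT (3.56% of all genes) and 2 in KO mice (4.03%).

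The same 3 genes had the smallest p-values in both diet comparisons of WAT. Mrpl43, a large subunit protein, had 28.7 FPKM (16.6 to 40.9) in WTAL, 81.7 (13.6 to 149.7) in WTDR, 28.0 (14.7 to 41.4) in KOAL and 59.4 (29.4 to 89.4) in KODR WAT. Mrpl12 had 29.8, 87.6, 28.8 and 64.2 FPKM, and Mrpl51 55.8, 161, 57.0 and 114. Each had close to the same value in both AL groups and a higher one in both DR groups, with intervals that overlapped. The log2 difference of Mrpl43 was 1.51 (SE 0.67) in WT and 1.08 (SE 0.50) in KO mice, and neither passed. Split by symbol, Mrpl and Mrps genes had medians of 0.62 and 0.43 in WT and 0.59 and 0.63 in KO mice.

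The genotype comparisons in WAT did not show this shift. Between WTAL and KOAL 22 genes were higher (45.2% of all genes, median -0.11 against -0.06), and between WTDR and KODR 29 were (56.5%, median -0.11 against 0.09), with 0 called in either (1.29% and 0.283% of all genes) or in the interaction (0.121%). At an unadjusted p under 0.05 these had 0, 1 and 0 genes (4.48%, 1.5% and 1.56% of all genes). Cell markers in WAT also moved with diet. The summed FPKM of 6 B cell genes was 7150 in WTAL, 2494 in WTDR, 5524 in KOAL and 3442 in KODR WAT, lower in DR mice of both genotypes. That of 10 white fat genes was 26111, 30420, 17414 and 22436, that of 10 brown and beige fat genes 55.3, 145, 99.8 and 130, and that of 5 red blood cell genes 6863, 12269, 4297 and 21030, each sum higher in DR mice of both genotypes. Of the brown and beige fat genes themselves, 7 of 10 were higher under DR in WT and 5 in KO mice. Ucp1, the defining gene of brown fat, was at 3.13, 11.8, 9.87 and 4.48 FPKM and did not follow the diet in KO mice, and Zic1 was at 0.11 or less. Of 10 skeletal muscle markers, all but Acta1 were higher in WTDR than in WTAL WAT, with Tnnt3 at 1.59 and 36.1 FPKM and Mylpf at 10.1 and 53.1, whereas 8 of 10 were lower in KODR than in KOAL WAT. The summed FPKM of 8 mammary epithelium genes was 16.8, 25.7, 135 and 101, higher in both groups labelled KO than in both WT groups. Between WTAL and KOAL WAT 6 of the 8 were higher and 0 lower, and between WTDR and KODR 5 were higher and 1 lower. The part of all these cells in the shift and in the genotype comparisons was not tested.

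In liver, 59 of 72 genes were higher in the group labelled KOAL than in WTAL mice (61.4% of all genes, median 0.33 against 0.16) and 57 were higher in KODR than in WTDR mice (57.4%, median 0.29 against 0.09). In both comparisons together, which share no mice, 49 were higher, 68.1% of the family against 38.1% of all genes. With the differences centred on the median of all genes, 54 and 51 were higher. None passed the FDR in these (0.316% and 0.288% of all genes), in WTDR against WTAL (0.236%), in KODR against KOAL (0.611%) or in the interaction (0.086%). Mrpl52 had the smallest p of the family between WTDR and KODR, with a log2 difference of 1.20 (SE 0.56), and its FPKM in WTAL, WTDR, KOAL and KODR mice was 50.1, 85.7, 105 and 197, so that WTAL was lowest and KODR highest. Mrpl30 stood at 58.9 FPKM in WTAL liver and at 121 to 129 in the other 3 groups. Between WTAL and WTDR liver 46 genes were higher (51.9% of all genes) and between KOAL and KODR 43 (47.4%), with medians of 0.17 and 0.04. At an unadjusted p under 0.05 there was 1 gene between WTDR and KODR (1.78% of all genes) and 0 in KOAL against WTAL (2.03%), WTDR against WTAL (2.91%), KODR against KOAL (2.87%) and the interaction (1.05%). The summed FPKM of the 5 red blood cell genes in liver was 2681 in WTAL, 3469 in WTDR, 13569 in KOAL and 12047 in KODR mice, and its part in the differences was not tested.

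In brain, the family stayed within about 0.1 of the median of all genes in 3 comparisons and lay below it between KOAL and KODR mice. The median differences were 0.14 between WTAL and KOAL (0.13 for all genes), -0.10 between WTAL and WTDR (-0.08), 0.13 between WTDR and KODR (0.23, which turns it to -0.10 once centred on all genes) and -0.18 between KOAL and KODR (0.03), with 0 genes called (0.203%, 0.224%, 1.16% and 0.365% of all genes) and 0 in the interaction (0.396%). In that order 49, 32, 43 and 23 of the 72 genes were higher (59.0%, 44.4%, 64.9% and 52.2% of all genes), so that 49 were lower in KODR than in KOAL brain. The summed FPKM of the 5 red blood cell genes in brain was 1032 in WTAL, 971 in WTDR, 9907 in KOAL and 3475 in KODR mice, and its part in these differences was not tested. At an unadjusted p under 0.05 these had 0, 1, 2, 1 and 2 genes (1.81%, 2.22%, 7.5%, 2.51% and 3.53% of all genes). Single genes varied more. Mrps36 had 2.90 FPKM (0 to 6.97) in WTAL, 5.73 (2.14 to 9.32) in WTDR, 8.49 (2.24 to 14.7) in KOAL and 1.65 (0 to 3.76) in KODR brain, and Mrpl42 3.13, 7.68, 11.3 and 3.66. Both were lowest in WTAL and KODR mice. Their interactions of -3.34 (SE 1.54) and -2.93 (SE 1.38) did not pass the FDR, and did with the smaller SE.

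Over the 8 comparisons of KO with WT (4 tissues on 2 diets), Mrpl3 was lower in all 8, as were 0.556% of all genes, with log2 differences from -0.70 to -0.0021. Over the 8 comparisons of DR with AL, Mrpl47 was higher in all 8, as were 0.63% of all genes, from 0.19 to 1.26. Neither passed a test in any of them. Mrps5, whose worm counterpart is known from lifespan studies, had 13.0 to 20.6 FPKM in brain, 14.3 to 26.0 in WAT, 18.4 to 22.8 in liver and 24.0 to 35.7 in skeletal muscle. It was higher in 5 of the 8 genotype and 4 of the 8 diet comparisons, with log2 differences from -0.31 to 0.84, each smaller than its SE.

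Among the genes of the family linked to human mitochondrial disease, 8 were followed: Mrpl3, Mrpl12, Mrpl44, Mrps2, Mrps7, Mrps14, Mrps16 and Mrps22. They are not a full list of such genes. Of these 8, Mrpl12 and Mrps16 had the largest diet differences in WAT, at 1.56 (SE 0.80) and 1.03 (SE 0.92) in WT and 1.16 (SE 0.57) and 1.02 (SE 0.62) in KO mice. Mrps22 had the smallest level of the 8 (2.33 to 11.6 FPKM over the 16 groups), and its diet differences in WAT were -0.22 (SE 0.95) and -0.06 (SE 0.69). None of the 8 passed the FDR in a diet or genotype comparison.

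The 3 Mrps18 genes are paralogs whose proteins sit at different places of the ribosome. Mrps18a had 18.6 to 61.4 FPKM over the 16 groups, Mrps18b 15.2 to 103 and Mrps18c 4.59 to 144. In liver Mrps18c was at 30.3 in WTAL and 144 in KODR mice, against 35.6 and 45.6 for Mrps18a and 64.6 and 86.8 for Mrps18b. The differences of Mrps18c had wide errors, such as 1.72 (SE 1.23) between WTAL and KOAL liver, and none passed the test. Mrps11 and Mrpl46, a small and a large subunit gene, lie head to head on chromosome 7 with starts 42 bases apart, so that their promoter windows overlap by 141 bases. The ratio of the FPKM of Mrps11 to that of Mrpl46 was 1.39 to 1.64 in liver, 1.20 to 2.04 in skeletal muscle, 1.00 to 1.80 in brain and 2.35 to 2.94 in WAT. It was highest in WAT, without overlap with the other tissues.

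The genes of this family have short transcripts, and the differences in these data varied with transcript length. The longest annotated transcript had a median of 1401 bases over the 72 genes, against 3043 over all tested genes with a coding transcript, and 26.4% of the family lay under 1000 bases, against 5.83% of all. Between WTAL and KOAL skeletal muscle the median log2 difference of all genes was 0.34 from 600 to under 1000 bases, 0.14 from 1000 to under 2000 and -0.17 at 2000 or more. The family had 0.71, 0.43 and 0.45 in these ranges, with 17, 29 and 24 genes. Between KOAL and KODR WAT all genes had 0.35, 0.23 and -0.12, and the family 0.68, 0.59 and 0.53. In both comparisons the family was above all genes in each of these ranges. Among these ranges the margin was widest at 2000 bases or more. Under 600 bases, 2 genes of the family had a median of 1.39 in skeletal muscle, against 0.53 for all genes, a wider margin still. In WAT these 2 genes had 0.76, against 0.29 for all genes. The part of transcript length in the differences of the family was not tested.

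**Figure D5:**
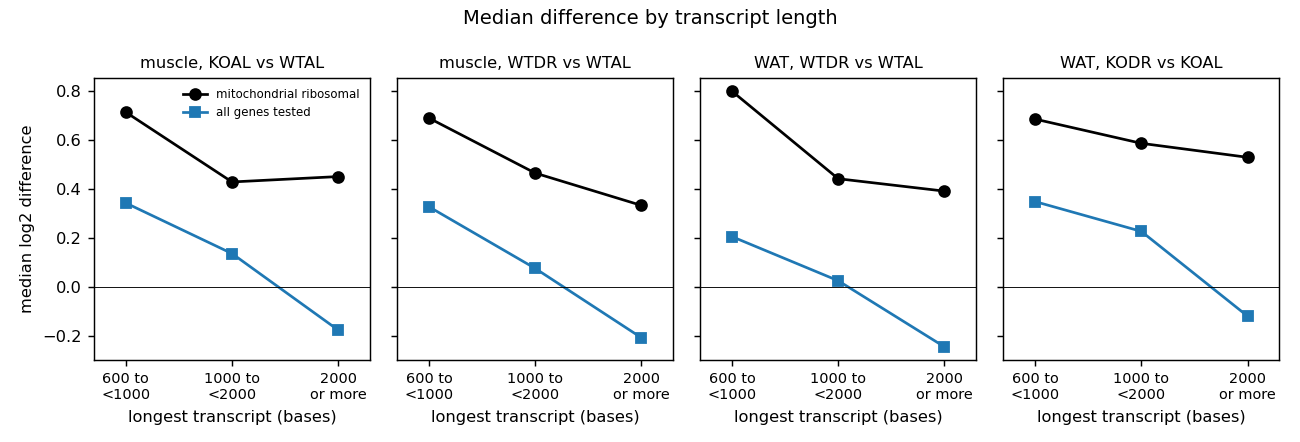
Median log2 difference against the length of the longest annotated transcript (3 ranges, in bases), for the mitochondrial ribosomal protein genes (black) and all genes tested (blue), in skeletal muscle and WAT. The blue line falls with length in all 4 panels, from 0.34 to -0.17 in the first, and the black line lies above it at each range, at 0.71, 0.43 and 0.45 in the first. The 2 genes under 600 bases are not drawn.

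In liver the picture differed between the genotype comparisons. Between WTAL and KOAL the family had 0.48, 0.30 and 0.34 in these 3 ranges and all genes 0.46, 0.32 and 0.05, so that a gap was left only at 2000 bases or more. Between WTDR and KODR the family had 0.27, 0.34 and 0.26 and all genes 0.19, 0.12 and 0.06, with the family above in all 3 ranges.

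The rest of the machinery for mitochondrial translation was read from lists of genes. In WAT, the median difference between KOAL and KODR was 0.37 for 23 assembly and rRNA modification genes (17 higher), 0.28 for 22 mitochondrial aminoacyl-tRNA synthetase genes (16 higher), 0.39 for 6 subunit genes under other names such as Dap3 (5 higher), -0.01 for 12 translation factor genes (6 higher) and -0.03 for 11 genes of mitochondrial transcription and mRNA stability (5 higher). Between WTAL and WTDR WAT these medians were 0.27, 0.29, 0.37, 0.03 and 0.02. None of these genes passed the FDR in WAT (0.57% of all genes in WT and 0.707% in KO mice). For all genes the median was 0.01 between KOAL and KODR WAT, with 50.6% higher. Between WTAL and WTDR WAT it was -0.17. The 6 mitochondrially encoded genes with an entry of their own were higher in DR WAT of both genotypes, with medians of 1.48 in WT and 0.33 in KO mice and 0 called.

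Of 74 genes of cytosolic ribosomal proteins, which build the ribosomes outside mitochondria, 73 were tested in skeletal muscle. Between WTAL and KOAL mice 70 were higher (46.9% of all genes), with a median of 0.66 against -0.05 for all genes. None passed the FDR in the Wald test used here (0.681% of all genes). The authors, who used Cuffdiff at the same FDR, reported Rpl37a, Rps26 and Rpl31 as higher in KOAL skeletal muscle. In WAT the medians of the cytosolic genes under DR were 0.20 in WT and 0.12 in KO mice (-0.17 and 0.01 for all genes). Both lay below those of the mitochondrial family. In liver the medians were 0.87 between WTAL and KOAL (0.16 for all genes) and 1.01 between WTAL and WTDR (0.03). Both lay above those of the mitochondrial family (0.33 and 0.17).

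Among the regulators, Yy1 fell in skeletal muscle between WTAL and WTDR mice, from 30.2 to 9.37 FPKM (log2 difference -1.69, SE 0.47). It was the only 1 of 12 regulators of mitochondrial biogenesis to pass in a within-tissue comparison (1.4% of all genes passed in this one). The list, which holds Ppargc1a, Nrf1 and Gabpa, had a median of -0.48 there, against -0.06 for all genes. In that comparison Mrpl35 and Mrpl42 had differences of 0.68 and 1.41, and neither passed. They are 2 of the 12 genes of the family whose promoter windows hold a match to the YY1 core. Mrpl42 is also among the genes of the family with the smallest p-values there. The median of the whole family was 0.45, and the genes with a match were not compared with the rest. Binding of YY1 at Mrpl35 and Mrpl42 and a link to the level of Yy1 were not tested. Taco1 is an activator of the translation of a cytochrome c oxidase subunit. It rose from 4.85 to 17.2 FPKM between WTDR and KODR brain (log2 difference 1.83, SE 0.50), where 1.16% of all genes passed. Fgf21 and Clpx were the only genes on the list of the mitochondrial unfolded protein response to pass in a within-tissue comparison. In liver they fell between KOAL and KODR mice, by 2.37 (SE 0.52) and by 2.19 (SE 0.47) on the log2 scale (0.611% of all genes passed). The direction of the rest of that list is not given here. The mitochondrial ribosomal protein genes had a median of 0.04 in that comparison.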

How the data were processed

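RNA of the 4 tissues was sequenced on an Ion Proton. The authors trimmed the reads with cutadapt 1.5, aligned them to GRCm38 and ran Cuffdiff 2.2.1 with geometric normalisation and correction for reads with several matches. The deposited values are FPKM per gene and group, pooled over libraries, with a 95% interval and a status. Counts and depth per library were not used here, so precision rests on that interval. Of the 42349 entries, 873 join several genes.

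The SD was taken as (upper bound minus FPKM)/2. Groups were compared by a two-sided Wald test on the log2 ratio of FPKM (delta method, normal reference), without a pseudocount, over entries with status OK, above 0 in both groups and at least 1 FPKM in 1 of them. P-values were adjusted (Benjamini-Hochberg) over all such entries within a tissue and comparison, with an FDR of 10%. The script was tested on simulated data. Python 3.11.15, numpy 2.4.6, pandas 2.3.3, scipy 1.17.1 and statsmodels 0.14.6 were used. Samples were grouped by their labels. Whether libraries came from separate mice could not be checked in pooled values.

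The genes and lists were chosen with earlier results of these data known. The genes named are those called in a comparison, the 3 with the smallest p in each, the 5 highest and 5 lowest, up to 3 per pair of tissues called in all 4 groups, the Mrps18 paralogs, Mrps36, Mrps5, 8 disease genes and called genes of the lists. Others were named after their values were seen. Lengths are those of the longest coding transcript in GENCODE on GRCm38, and promoters are from RefSeq. The alternatives were an FDR of 5%, a smaller SE (SD divided by the square root of the number of libraries in the labels), no filter or one at 5 FPKM, a t distribution, a pseudocount of 0.1 or 1, centring on the median of all genes, and leaving out joined entries or Mrps36.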

Additional observations from a re-analysis of the deposited data

How the results depend on the processing

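The 72 genes of the family were counted under 10 alternatives for the 11 summaries of called genes. Of 110 such counts, 84 stayed within 1.5 times the value reported. The smaller SE raised every count: to 7, 7, 15, 9 and 2 calls over the 4 tissues for KOAL against WTAL, WTDR against WTAL, KODR against WTDR, KODR against KOAL and the interaction, and to 12, 21, 3, 16, 2 and 5 for skeletal muscle against liver, brain against liver, WAT against liver, brain against skeletal muscle, WAT against skeletal muscle and WAT against brain in all 4 groups. The t distribution left 0 calls for KOAL against WTAL and for KODR against WTDR and 0 for brain against liver, WAT against liver and brain against skeletal muscle. An FDR of 5% left 1 call for KOAL against WTAL, 3 for brain against liver and 2 for brain against skeletal muscle. Pseudocounts of 0.1 and 1, a filter at 5 FPKM and centring each gave 1 call (Mrps21 in skeletal muscle) for WTDR against WTAL. For brain against skeletal muscle the pseudocount of 1 and the filter at 5 FPKM gave 7 and centring gave 9. The cause was not tested. The medians per tissue and comparison moved by at most 0.23, less than the median SE of a gene, and 1 changed sign. No paired analysis was possible because the deposited values are pooled per group, and for the same reason no single library could be left out.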

Other observations

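In brain, a few genes of the family with short transcripts, picked out by their values, followed an uneven pattern over the 4 groups. How many genes of the family or of all genes follow it was not counted. Mrpl52 (longest transcript 463 bases), Mrpl42 (666) and Mrps36 (701) were each lower in WTAL and KODR than in WTDR and KOAL mice. For Mrpl52 the FPKM was 3.02, 9.90, 8.27 and 3.61 in WTAL, WTDR, KOAL and KODR brain. The median FPKM of the mitochondrially encoded genes with an entry of their own was likewise lower in WTAL and KODR, at 707, 4607, 3498 and 901, though the order of the groups was not the same for every gene. Among them mt-Nd3, a subunit of complex I, rose from 178 to 2565 FPKM between WTAL and WTDR (log2 difference 3.85, SE 0.69). It was at 154 in KODR brain, with an interaction of -6.79 (SE 0.88) that passed the FDR of 10% (0.396% of all genes). The interactions of mt-Nd5 (-5.33, SE 1.24), mt-Co2 (-4.45, SE 1.09) and mt-Cytb (-4.46, SE 1.14) passed as well, and those of the others did not. The genes of cytosolic ribosomal proteins had median FPKM of 47.7, 55.5, 69.0 and 41.1. Over all genes the median of the interaction in brain was -0.75 under 600 bases and -0.12 from 600 to under 1000. It was 0.05 from 1000 to under 2000 and 0.17 at 2000 or more. The family had -0.98, -0.32, 0.10 and -0.12 in these ranges, with 2, 17, 29 and 24 genes. Mrpl42 and Mrps36 lie in the range from 600 to under 1000. What the genes with this uneven pattern share was not tested.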
